A study of Mus musculus with 70 samples.

Results

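The 10 genes described here are the cadherins and the regulators and markers of epithelial-mesenchymal transition (EMT) Cdh1, Epcam, Cdh2, Vim, Fn1, Snai1, Snai2, Twist1, Zeb1 and Zeb2. They were taken by gene symbol from the 21150 named genes of the array, leaving out control spots, and each was followed over every passage and route of the series. All samples were RENCA cells carrying GFP, an established mouse kidney carcinoma line of BALB/c origin, and the host mice were female BALB/c mice of 6 weeks. P0 was the line before any passage in mice. The kidney route (KPT) held cells recovered from the kidney tumour after injection under the capsule of the kidney. For the tail route (T-LM) cells were injected into the tail vein and recovered from lung metastases, and for the lung route (K-LM) they were injected into the kidney and likewise taken from lung metastases. Recovered cells were grown in culture before RNA extraction and before the next injection, so P1 to P6 count rounds of injection and recovery, and no group received a drug. The 65 RNA samples were measured on 70 single-colour arrays, because both P0 samples and 3 KPT P6 samples were hybridised again. P0 held 2 samples. KPT held 5, 2, 2, 3, 5 and 5 samples at P1 to P6, T-LM held 5, 2, 3, 4, 6 and 4, and K-LM held 1, 1, 5, 3, 4 and 3. RENCA is a single established line, and nothing in the labels states which sub-line each sample descended from, so p-values measure the spread between these samples.

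As background, EMT is the programme by which cells of an epithelium lose their cell-cell junctions and take on a motile, matrix-producing state. Cdh1 (E-cadherin) holds epithelial cells together at adherens junctions and Epcam is an epithelial surface adhesion molecule, while Cdh2 (N-cadherin), Vim (vimentin, an intermediate filament) and Fn1 (fibronectin, an extracellular matrix protein) mark mesenchymal cells. Snai1, Snai2, Zeb1 and Zeb2 are zinc-finger repressors that bind E-box motifs in epithelial promoters such as that of Cdh1, and Twist1 is a basic helix-loop-helix factor of the same programme. Tubular cells of the kidney express cadherins of several kinds, and many renal carcinomas express vimentin.

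The promoter windows of Epcam and Snai1 are shown because, of the 5 members whose windows were searched, these hold the E-box CAGGTG, which reads CACCTG on the other strand and is the motif bound by Snail and Zeb factors. Windows ran from 250 bases before to 50 bases after the RefSeq start (GRCm38.p6) and are printed 5′ to 3′ on the strand of the gene, with the motif in capitals. The Epcam window lies at chr17:87635729-87636028 on the plus strand and the Snai1 window at chr2:167537945-167538244 on the plus strand.
Epcam: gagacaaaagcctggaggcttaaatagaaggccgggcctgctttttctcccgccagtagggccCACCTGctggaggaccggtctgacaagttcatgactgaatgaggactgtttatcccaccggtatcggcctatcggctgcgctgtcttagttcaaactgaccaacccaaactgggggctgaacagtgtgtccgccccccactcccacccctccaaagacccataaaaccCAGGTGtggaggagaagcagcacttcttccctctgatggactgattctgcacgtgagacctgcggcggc
Snai1: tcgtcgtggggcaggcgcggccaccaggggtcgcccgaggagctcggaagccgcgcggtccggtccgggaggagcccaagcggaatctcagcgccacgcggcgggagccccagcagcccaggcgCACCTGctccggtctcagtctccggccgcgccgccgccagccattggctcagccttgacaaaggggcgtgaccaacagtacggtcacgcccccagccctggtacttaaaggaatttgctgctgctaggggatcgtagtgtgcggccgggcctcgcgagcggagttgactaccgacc
Epcam held the motif at 2 places, starting at positions 64 and 232 of the window, and Snai1 held it once, starting at position 125. The windows of Vim and Twist1 and the 4 windows of Zeb2 held none. Those of Cdh1, Cdh2, Fn1, Snai2 and Zeb1 were not analysed here. Of 32851 promoter windows of the same length, 6640 (20.2%) held at least 1. These are matches of letters in a window and say nothing of binding.

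A level is the log2 of the processed signal minus the array's 75th percentile, taken over the 11290 probes above background on all arrays. A level of 0 is therefore as bright as that percentile, and levels of different probes cannot be set against each other. Vim, Snai1 and Zeb1 were above background on all 70 arrays and Zeb2 on 69. Fn1 was above background on 58 arrays, Cdh2 on 39, Snai2 on 22, Cdh1 on 7, Epcam on 5 and Twist1 on 4. Cdh2 and Zeb2 each had a second, dimmer probe, above background on 28 and on 3 arrays. A level below background has only an upper bound, and a ratio against a group that was below background on all its arrays is given as "at least N-fold". The bound is the smaller of 2 values, both with dim signals raised to each array's lowest signal well above background (the floor). The first comes from the group means with the dim group so raised, and the second from the fit with all dim values raised. Fitted log2 changes printed beside a bound use dim signals as measured.

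Between 25.3% and 55.3% of probes were above background per array. Among renal markers, Pax8 was above background in all 65 samples and Wt1 in 63, while Pax2 was above background in 0, Cdh16 in 21 and Lhx1 in 2. No fibroblast or pericyte marker of 10 was above background at P0. At P6 the KPT samples had 5 to 6 of them above background, the T-LM samples 6 to 8 and the K-LM samples 6 to 7. Some markers listed for leukocytes were above background in every group, with 5 to 6 of 11 at P0, 7 to 9 in KPT P6, 8 to 11 in T-LM P6 and 6 in K-LM P6. Cd68, Cd14, Csf1r, Cd74 and Itgam were so in all 65 samples, the never-implanted P0 included, and thus did not set groups apart. Ptprc was above background in 12 samples, Adgre1 in 18 and Laptm5 in 16. In these bulk cultures, fewer cells of a type and less RNA per cell cannot be told apart. A single slide, called the late slide here, carried the 3 K-LM P6 arrays as well as the 5 repeat arrays and was read on another day with a later version of the scanner software. In those 5 repeats the late array minus the first array differed by -0.90 to -0.17 for Cdh2, by -1.40 to 0.51 for Fn1, by -0.52 to 0.27 for Snai1 and by -1.36 to 0.35 for Cdh1. The T-LM P1 group includes 1 sample whose title names no route (called LOT1 here), placed by its other label.

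**Figure D1:**
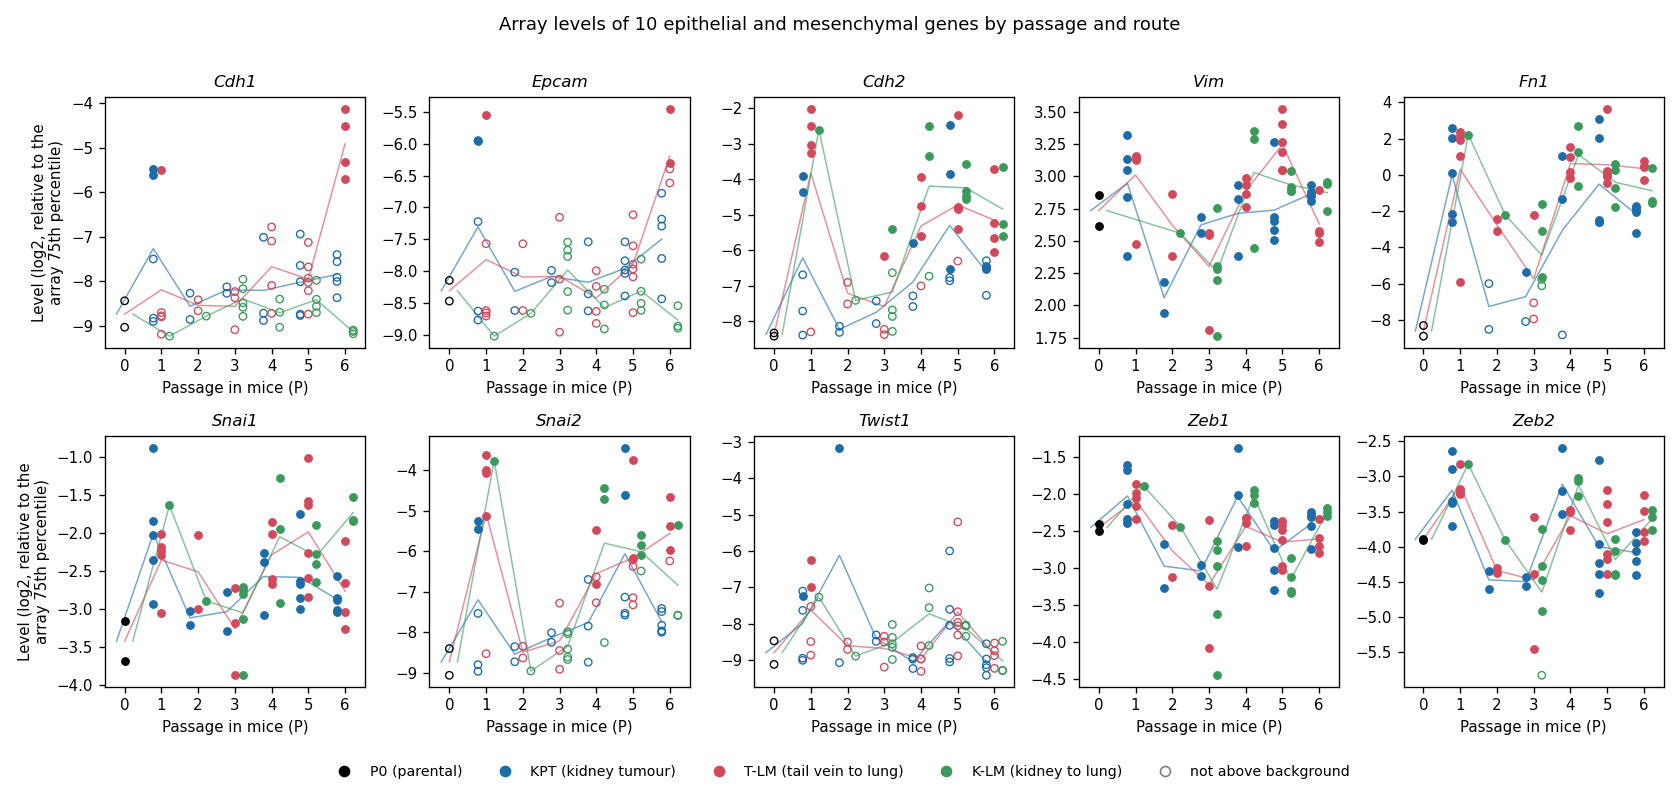
Level of each of the 10 genes (log2, relative to the array's 75th percentile) in every RNA sample at P0 to P6, by route. Points are samples, filled where above background, and lines join the group means. Cdh1 lay near -8 to -9 in most samples and between -5.70 and -4.13 in the T-LM P6 samples, while Vim stayed between 1.76 and 3.52 throughout.

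Among the epithelial members, Cdh1 was above background in 7 of 65 samples. These were all 4 T-LM P6 samples, KPT P1 replicates 4 and 5, and T-LM P1 replicate 2. The parental P0 samples read -9.03 and -8.44, both below background. The T-LM P6 samples read -5.31, -4.13, -4.52 and -5.70. Every T-LM P6 sample was therefore above every P0 sample and above every sample of T-LM P2 to P5, which ranged from -9.09 to -6.78. KPT P6 samples read -8.37, -7.91, -8.01, -7.40 and -7.56, and K-LM P6 samples read -9.18, -9.10 and -9.13. None of these was above background, and Cdh1 was below background in every K-LM sample of every passage. At P1 the samples of a group were unlike each other. KPT P1 replicates 1 to 5 read -8.83, -8.90, -7.50, -5.49 and -5.61, and T-LM P1 replicate 2 read -5.50 while the other 4 lay between -9.19 and -8.70.

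Epcam was above background in 4 samples, and all 4 were among the 7 with Cdh1. They were T-LM P6 replicates 2 and 3, at -5.45 and -6.31, KPT P1 replicate 5 at -5.95, and T-LM P1 replicate 2 at -5.54. T-LM P6 replicates 1 and 4 read -6.39 and -6.62, below background. P0 read -8.47 and -8.15. In KPT P6 replicate 1 Epcam was above background on the late array only. No K-LM sample had Epcam above background, and K-LM P6 averaged -8.77 ± 0.195 (SD, n = 3).

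Lung epithelial markers moved with Cdh1. Of 9 such markers, 4 to 7 were above background in the T-LM P6 samples, against 1 at P0 and 2 in KPT P6 and in K-LM P6. Their summed linear level, in units of the array's 75th percentile, was 0.305 to 0.894 in T-LM P6, 0.0784 to 0.120 at P0, 0.134 to 0.186 in KPT P6 and 0.221 to 0.269 in K-LM P6. Sftpc, the surfactant protein of alveolar type II cells, averaged -2.76 ± 1.39 (SD, n = 4) in T-LM P6 and was above background in all 4. It averaged -8.78 ± 0.47 (n = 2) at P0, -8.77 ± 0.597 (n = 5) in KPT P6 and -9.26 ± 0.0287 (n = 3) in K-LM P6, with no sample above background. Sftpd was likewise above background in all 4 T-LM P6 samples, at -4.55 ± 0.583 (SD), and in none of the P0, KPT P6 or K-LM P6 samples. Nkx2-1, the lung lineage factor, was above background in 0 of 65 samples. T-LM P1 replicate 2 had 6 of the 9 markers above background, but also 55.3% of all probes, the largest share of any array. KPT P1 replicates 4 and 5 had Cdh1 with 1 and 3 of the markers, and T-LM P4 replicate 2 had 6 markers with Cdh1 below background. The part of lung epithelial RNA in the Cdh1 level was not tested.

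The mesenchymal members behaved unlike each other. Vim was the steadiest, with all samples between 1.76 and 3.52 and group means from 2.06 ± 0.173 (SD, n = 2) in KPT P2 to 3.25 ± 0.193 (n = 6) in T-LM P5. P0 already read 2.61 and 2.86. The single K-LM P1 value was lost to a spot flag.

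Fn1 had the widest range of the 10 genes, from -8.89 to 3.65, or 12.5 log2 units. Both P0 samples were below background, at -8.89 and -8.30. After the first passage all 11 P1 samples were above background, and K-LM P1 read 2.22. KPT P1 read -2.13, -2.58, 0.08, 2.01 and 2.56. T-LM P1 read 1.04, 1.92, 2.38, 2.15 and, for LOT1, -5.90. Fn1 was thus detected in every culture taken from a first tumour, at levels that differed widely within a route. The group means of every route were lower at P2 and P3 than at P1. KPT P2 read -8.52 and -5.99 and KPT P3 read -5.34 and -8.09, T-LM P3 read -7.94, -7.05 and -2.19, and K-LM P3 read -3.07, -5.64, -1.59, -6.11 and -5.76. From P4 on the group means of every route lay above those at P3. At P6, KPT read -3.19, -1.85, -2.03, -1.74 and -1.93, T-LM read 0.49, 0.75, 0.44 and -0.29, and K-LM read -1.56, -1.45 and 0.39. All 12 P6 samples were above background and above both P0 samples.

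Cdh2 followed the same course at dimmer signal. P0 read -8.33 and -8.42, below background on both probes. T-LM P1 replicates 2 to 5 read -3.04, -2.52, -2.02 and -3.26, and LOT1 read -8.30. At P3 it was above background in 0 of 2 KPT, 1 of 3 T-LM and 1 of 5 K-LM samples. At P6 KPT read -7.27, -6.53, -6.50, -6.44 and -6.30, T-LM read -5.22, -3.71, -5.65 and -6.05, and K-LM read -5.27, -5.59 and -3.67. The P6 samples of every route lay above both P0 samples, and the KPT samples lay below all others. T-LM P5 replicate 1 stood highest among the T-LM P5 samples for both genes, with Cdh2 at -2.19 and Fn1 at 3.65.

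Fibroblast and pericyte markers (Pdgfra, Pdgfrb, Dcn, Lum, Dpt, Col1a1, Col1a2, Col3a1, Cspg4 and Rgs5) moved with Fn1 and Cdh2. Their summed linear level was 0.0467 to 0.0509 at P0, 0.594 to 1.30 in KPT P6, 2.32 to 7.83 in T-LM P6 and 1.08 to 3.20 in K-LM P6. It reached 48.2 in T-LM P5 replicate 1, and 6.31 to 17.9 in T-LM P1 replicates 2 to 5 against 0.481 in LOT1. Dcn (decorin) read -7.58 ± 0.612 (SD, n = 2) at P0 and 0.02 ± 0.47 (n = 4) in T-LM P6. Pdgfra, which marks fibroblasts, was above background in 0 of 2 P0, 0 of 5 KPT P6, 3 of 4 T-LM P6 and 1 of 3 K-LM P6 samples. The part of fibroblast RNA in the Fn1 and Cdh2 levels was not tested.

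Among the transcription factors, Snai1, Zeb1 and Zeb2 were already expressed at P0, and Snai2 and Twist1 were below background there. Snai1 ranged from -3.88 to -0.89, with P0 at -3.16 and -3.69. K-LM P6 read -1.83, -1.84 and -1.54, above all KPT P6 samples (-3.05 to -2.57) and all T-LM P6 samples (-3.27 to -2.11). Snai2 was above background in 22 samples. P0 read -9.07 and -8.41, T-LM P6 read -5.37, -4.65, -5.97 and -6.24, and K-LM P6 read -7.58, -7.59 and -5.34. KPT P6 samples reached at most -7.41, all below background, while 3 of 4 T-LM P6 samples and 1 of 3 K-LM P6 samples were above it.

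Zeb1 ranged from -4.45 to -1.37 and Zeb2 from -5.83 to -2.59. Zeb1 read -2.50 and -2.40 at P0 and averaged -2.40 ± 0.202 (SD, n = 5) in KPT P6, -2.60 ± 0.196 (n = 4) in T-LM P6 and -2.24 ± 0.0519 (n = 3) in K-LM P6. Both genes had their lowest group mean of each route at P3, where Zeb1 averaged -3.04 ± 0.107 (n = 2) for KPT, -3.23 ± 0.869 (n = 3) for T-LM and -3.29 ± 0.757 (n = 5) for K-LM. In KPT the P2 means were close by, at -2.97 ± 0.416 for Zeb1 and -4.47 ± 0.179 for Zeb2, which averaged -4.49 ± 0.0933 at P3. The RNA balance index, the mean level of 17 long mRNAs minus that of 59 ribosomal protein mRNAs, was low in the same groups, though lower still in K-LM P5 (-8.78). It averaged -8.55 in KPT P3, -8.10 in T-LM P3 and -8.50 in K-LM P3, against -6.85 at P0 and -7.11 and -6.77 in the T-LM and K-LM P6 groups. With the index as a covariate at P6, Zeb2 was called higher in T-LM than in KPT (0.61 ± 0.102, SE, adjusted p = 0.000346, limma) and higher in K-LM than in KPT (0.53 ± 0.119, adjusted p = 0.00308, limma), while Zeb1 was called in neither. Twist1 was above background in 4 samples and reached -3.17 in KPT P2 replicate 2, while the other KPT P2 sample read -9.07. None of the 12 P6 samples had Twist1 above background.

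The first comparison asked what a single passage in the mouse changed. From P0 to P1 in T-LM, Fn1 was the only member of 10 tested to pass an adjusted p of 0.01 (limma, Benjamini-Hochberg over all probes), where 2.56% of all tested probes passed. It was at least 77.3-fold higher at P1, with a fitted log2 change of 8.27 ± 1.62 (SE, adjusted p = 0.00319, limma). It no longer passed without either P0 sample (adjusted p = 0.0622 and 0.0589, limma), nor with dim values raised to the floor (6.27, adjusted p = 0.0184, limma). Cdh2 had a fitted change of 4.28 ± 1.22 (adjusted p = 0.031, limma) and Snai2 of 2.97 ± 0.969 (adjusted p = 0.055, limma), and neither passed. Without LOT1, Cdh2, Snai2 and Fn1 were 3 members called, with the share of all probes called in that fit not given here. From P0 to P1 in KPT, 0 of 9 tested members passed (limma), beside 4.41% of all tested probes. An unadjusted p under 0.05 (limma) was reached by 2 of the 9, beside 27.3% of all tested probes. There Fn1 had a fitted change of 7.94 ± 2.01 (adjusted p = 0.0145, limma) and Snai1 of 1.52 ± 0.398 (adjusted p = 0.0172, limma). Cdh1 had fitted changes of 0.83 ± 0.767 in KPT and -0.10 ± 0.701 in T-LM.

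The second comparison set the parental line against P6. In T-LM, 2 of 9 tested members rose and none fell, beside 7.30% of all tested probes called in either direction. Cdh1 was at least 2.05-fold higher at P6, with a fitted log2 change of 3.18 ± 0.508 (SE, adjusted p = 0.000224, limma). In this fit Cdh1 was above background in the T-LM P6 samples alone, and Epcam in replicates 2 and 3 of them alone. Both were tested only for that reason, so the filter set the direction of their changes in advance. Fn1 was at least 78.9-fold higher, with a fitted change of 8.29 ± 1.18 (adjusted p = 6.2e-05, limma). Cdh1 and Fn1 were thus both above background in the same 4 cultures, which for Cdh1 is a description only. Snai2, Epcam and Cdh2 had fitted changes of 2.48 ± 0.74, 1.49 ± 0.455 and 2.95 ± 0.933, with adjusted p of 0.032, 0.0363 and 0.0442 (limma), and did not pass. The samples of these 3 genes did not overlap between P0 and P6. This is a description only, since both P0 samples were below background for them. The share of all probes without overlap is not given. The second Cdh2 probe gave 2.62 ± 0.877. Snai1 (0.76 ± 0.463), Vim (-0.20 ± 0.22), Zeb1 (0.02 ± 0.335) and Zeb2 (0.35 ± 0.383) did not pass either. The call of Cdh1 was lost without P0 replicate 1 (adjusted p = 0.0114, limma) and with dim values raised to the floor, where its change was 1.04 (adjusted p = 0.145, limma).

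In K-LM, 1 of 7 tested members was called from P0 to P6, beside 4.47% of all tested probes. Fn1 was at least 55.4-fold higher, with a fitted change of 8.38 ± 1.14 (SE, adjusted p = 5.42e-05, limma). Snai1 (1.58 ± 0.38, adjusted p = 0.0112, limma) and Cdh2 (3.80 ± 0.925, adjusted p = 0.0125, limma) came close to the threshold. Every K-LM P6 sample lay above both P0 samples for each, given as a description. The second Cdh2 probe gave 3.85 ± 0.908 and passed narrowly. Snai2 had 2.60 ± 0.789 (adjusted p = 0.0485, limma). Cdh1 and Epcam were below background at both ends and were not tested. In KPT, 0 of 7 tested members were called (limma), beside 3.87% of all tested probes. An unadjusted p under 0.05 (limma) was reached by 2 of the 7, beside 18.3% of all tested probes. Fn1 had the largest fitted change there, 5.72 ± 2.01 (adjusted p = 0.115, limma). Its samples did not overlap between P0 and P6, again given as a description. Cdh2 had 1.65 ± 0.905, Snai1 0.69 ± 0.313, Vim 0.08 ± 0.195 and Zeb1 0.16 ± 0.319. With the 2 compared groups alone in the fit, Cdh2 and Fn1 were 2 members called in KPT, and the share of all probes called there is not given. The 3 routes share the P0 samples, so their P0 to P6 changes are not independent of each other. In the KPT and T-LM fits P0 entered by its first arrays, so fitted changes differ from the gaps between the group levels given above.

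**Figure D2:**
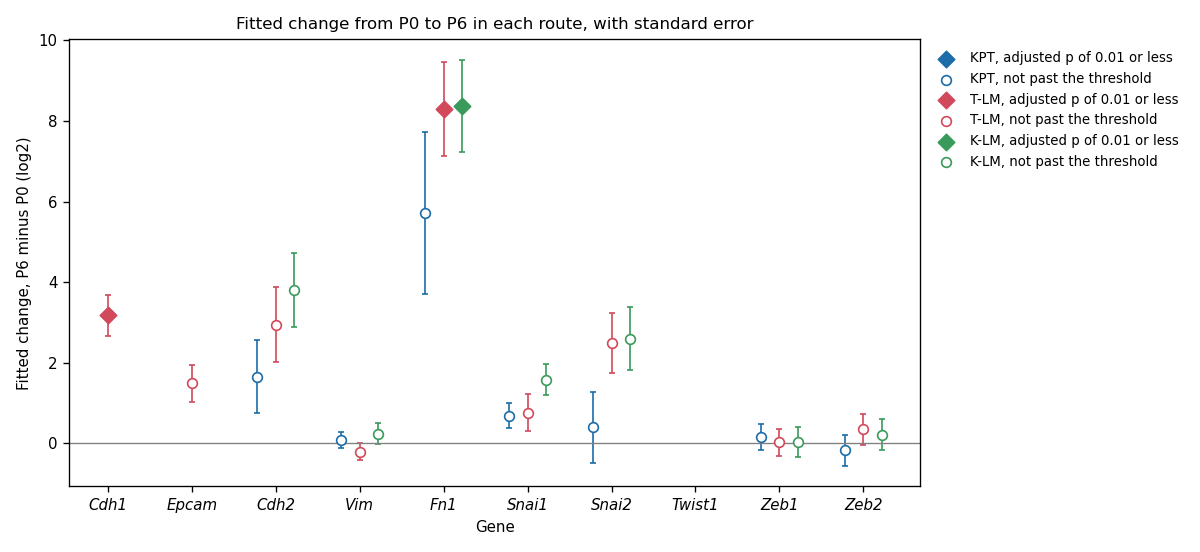
Fitted log2 change from P0 to P6 with its standard error for each tested member in KPT, T-LM and K-LM. Fn1 had the largest change in each route, 5.72, 8.29 and 8.38, and Cdh1 was tested in T-LM, where its change was 3.18.

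The later rounds were compared from P3 to P6. In T-LM, 4 of 9 tested members rose, beside 6.99% of all tested probes called. Cdh1 was at least 3.10-fold higher at P6 (fitted change 3.65 ± 0.448, SE, adjusted p = 2.06e-05, limma), Epcam at least 1.28-fold (1.89 ± 0.401, adjusted p = 0.00338, limma) and Snai2 at least 1.99-fold (2.66 ± 0.653, adjusted p = 0.00973, limma). Fn1 had a change of 6.08 ± 1.04 (adjusted p = 0.000558, limma). Epcam was above background on 2 and Snai2 on 3 of the 4 T-LM P6 arrays. No other array of this fit had Cdh1 or Epcam above background. The filter thus admitted both through T-LM P6 alone and set the direction of their changes in advance. Cdh1 was called in every alternative that tested it and Fn1 in all but the fit of the 2 groups alone (adjusted p = 0.0148, limma). The calls of Epcam and Snai2 were less steady. With dim values raised to the floor Epcam had 0.43 (adjusted p = 0.463, limma) and Snai2 0.99 (adjusted p = 0.222, limma), and with normexp background correction the adjusted p were 0.123 and 0.0353 (limma). Snai2 lost its call without any single sample but T-LM P3 replicate 5, at adjusted p of 0.0108 to 0.0485 (limma). Epcam lost it without T-LM P3 replicate 2 or 3 (adjusted p = 0.0174 and 0.0192, limma), and without T-LM P6 replicate 2 or 3 it was above background on too few arrays to be tested. Without T-LM P3 replicate 3, Zeb1 (1.06, adjusted p = 0.00934, limma) and Zeb2 (1.31, adjusted p = 0.00919, limma) were called beside Cdh1 and Fn1. In K-LM 0 of 7 tested members passed (limma), beside 1.66% of all tested probes. An unadjusted p under 0.05 (limma) was reached by 6 of the 7, beside 29.2% of all tested probes. Fn1 had 4.86 ± 1.13 (adjusted p = 0.0164, limma), Snai2 2.91 ± 0.784 and Cdh2 2.87 ± 0.92 there. Without K-LM P3 replicate 3, Fn1 was called (5.57, adjusted p = 0.00239, limma). The share of all probes called in the fits with a sample left out is not given here. In KPT 0 of 7 passed (limma), beside 0.705% of all tested probes. An unadjusted p under 0.05 (limma) was reached by 1 of the 7, beside 22.5% of all tested probes. The P3 to P6 changes of T-LM, KPT and K-LM were set against each other in 1 model, and no member differed past the threshold. The nearest was Cdh1, whose change in K-LM was below that in T-LM by -3.94 ± 0.924 (adjusted p = 0.0103, limma).

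The routes were then compared at P6 with the late slide as a term. In T-LM against KPT, 3 of 9 tested members were called, all higher in T-LM, beside 11.5% of all tested probes. Cdh1 was at least 3.20-fold higher in T-LM (2.79 ± 0.341, SE, adjusted p = 1.03e-05, limma), Snai2 at least 2.05-fold (1.95 ± 0.418, adjusted p = 0.00251, limma), and Fn1 higher by 2.39 ± 0.44 (adjusted p = 0.000665, limma). For each the T-LM samples lay above all KPT samples, given as a description. Among the arrays of the P6 fits, Cdh1 was above background in T-LM P6 alone. It was tested only for that reason, so its direction was set in advance. Snai2 was above background on no KPT P6 array and, outside T-LM P6, on too few arrays to be tested. Its direction against KPT was thus set in advance as well. The Snai2 call was lost without KPT P6 replicate 2 (adjusted p = 0.0101, limma) and without T-LM P6 replicate 1 or 2 (adjusted p = 0.0104 and 0.0133, limma), and with dim values raised to the floor it was 1.04 (adjusted p = 0.0846, limma). Vim was lower by -0.29 ± 0.0981 (adjusted p = 0.0468, limma) and Zeb2 was 0.53 ± 0.154 (adjusted p = 0.0221, limma), and neither passed. Zeb2 passed with slide as a random block (0.57, adjusted p = 0.00728, limma), as it did with the RNA balance index above.

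In K-LM against KPT, 2 of 9 tested members were called, beside 16.1% of all tested probes, so the members' share was near that of all probes. Cdh2 was higher in K-LM by 2.15 ± 0.463 (SE, adjusted p = 0.00221, limma), and by 2.24 ± 0.51 on the second probe. Snai1 was higher by 1.10 ± 0.24 (adjusted p = 0.00239, limma). Both calls were lost without KPT P6 replicate 1 (adjusted p = 0.011 for Cdh2 and 0.0102 for Snai1, limma) and without K-LM P6 replicate 3 (adjusted p = 0.0179 and 0.015, limma). Between the 2 routes that ended in the lung, Cdh1 alone was called, 1 of 9 tested members beside 11.9% of all tested probes. It was at least 2.66-fold lower in K-LM than in T-LM (-3.78 ± 0.47, adjusted p = 2.12e-05, limma), and with dim values raised to the floor the difference of -1.41 did not pass (adjusted p = 0.0259, limma). Here too Cdh1 passed the filter through the T-LM P6 arrays alone, which set the direction in advance. Epcam (-2.37 ± 0.663, adjusted p = 0.016, limma) and Snai1 (0.99 ± 0.281, adjusted p = 0.0173, limma) did not pass, and Cdh2 differed by 0.86 ± 0.544 and Fn1 by -0.85 ± 0.603.

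Epithelial and mesenchymal members were then set against each other sample by sample. All 7 samples with Cdh1 above background also had Cdh2, Vim, Fn1, Snai1, Zeb1 and Zeb2 above background, and 6 of them had Snai2. Vim, Snai1 and Zeb1 were above background in all 65 samples, Zeb2 in 64 and Fn1 in 55. For these genes the overlap was thus fixed or nearly so. Snai2 was above background in 22 of the 65. Of the 37 samples with Cdh2 above background, 7 had Cdh1. In these bulk cultures Cdh1 RNA was therefore seen beside Cdh2 RNA and not in its place, which does not show both in the same cells. For instance T-LM P6 replicate 2 had the highest Cdh1 level of all samples (-4.13) and the highest Cdh2 (-3.71), Fn1 (0.75) and Snai2 (-4.65) of its group.

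Of 17 relations of an epithelial member with another member, 1 passed after adjustment over the 17. It was Cdh1 with Epcam (Pearson r = 0.87, Spearman rho = 0.80, n = 65, permutation p = 1e-05, the smallest that 100000 resamples can give, adjusted p = 0.00017). Without the 2 samples farthest from the median its r was 0.84. Cdh1 gave r = 0.34 (rho 0.27) with Fn1 and r = 0.35 (rho 0.32) with Snai2, both at an adjusted permutation p of 0.0283. With Cdh2 it gave r = 0.23 (rho 0.15, adjusted permutation p = 0.189). No Pearson r of the 17 was negative over all samples, the lowest being 0.00502, while Spearman rho was negative for 6, down to -0.19 for Epcam with Zeb1, and none of these passed. Within KPT 5 of 17 passed, all positive, and all were relations of Cdh1. They were those with Epcam (r = 0.87), Cdh2 (0.74, adjusted permutation p = 0.00161), Snai2 (0.71, adjusted permutation p = 0.00382), Fn1 (0.69, adjusted permutation p = 0.00249) and Snai1 (0.68, adjusted permutation p = 0.00432), over 22 samples. Of these samples only KPT P1 replicates 4 and 5 had Cdh1 above background. The relations within KPT therefore rest largely on Cdh1 values that carry only a bound. Within T-LM only Cdh1 with Epcam passed, and Cdh1 with Cdh2 gave 0.19. On deviations from the mean of each route and passage, Cdh1 with Cdh2 gave 0.42 (adjusted permutation p = 0.00215). Within K-LM 3 passed, and Cdh1 with Cdh2 gave -0.48 (adjusted permutation p = 0.0713). In K-LM, Cdh1 gave r = -0.74 with Zeb1 and -0.71 with Zeb2, at adjusted permutation p of 0.00544 and 0.00742. No K-LM array had Cdh1 above background, and in those 17 samples its level gave r = 0.95 with the array's own lowest signal well above background. In the 57 samples with neither gene above background Cdh1 and Epcam still gave r = 0.69 (rho 0.74), so part of their relation lies in values that carry only a bound. In the 7 samples with Cdh1 above background the r was 0.36, given as a description. Samples of a route descend from earlier passages and share slides and days, so these p-values are descriptive.

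**Figure D3:**
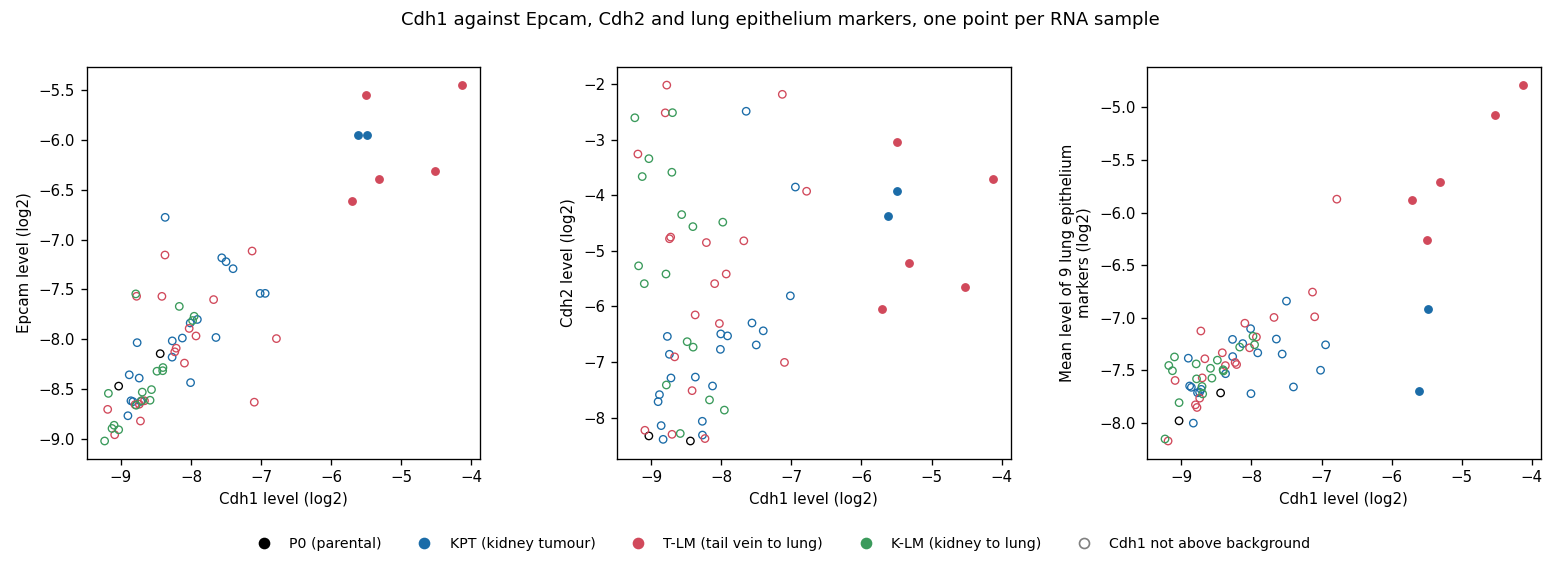
Level of Cdh1 (log2) in each RNA sample against Epcam, Cdh2 and the mean level of 9 lung epithelial markers, by route. Filled points mark the 7 samples with Cdh1 above background, which lie at the top for Epcam. Their Cdh2 levels lay between -6.05 and -3.04, where all samples ranged from -8.42 to -2.02. Over all samples r was 0.87 for Epcam and 0.23 for Cdh2.

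Pairs of mesenchymal members, chosen after their values were seen, gave closer relations. Of 28 such pairs, Cdh2 with Snai2 gave r = 0.93 (rho 0.91), Zeb1 with Zeb2 0.88 (rho 0.83), Cdh2 with Fn1 0.86 (rho 0.90), Fn1 with Snai2 0.80 (rho 0.88) and Vim with Snai1 0.75 (rho 0.75). Twist1 with Zeb1 gave 0.04 (rho -0.05). Snai1 gave 0.70 with Cdh2, 0.68 with Fn1, 0.63 with Snai2, 0.62 with Zeb2 and 0.57 with Zeb1. The mean level of the fibroblast and pericyte markers gave r = 0.91 with Cdh2, 0.93 with Fn1 and 0.92 with Snai2. The mean level of the lung epithelial markers gave r = 0.83 with Cdh1 (rho 0.72) and 0.66 with Epcam (rho 0.55). Each had a permutation p of 1e-05 (adjusted p = 1.5e-05 over the 33 relations of this kind) over 65 samples, 64 for Vim, except the Twist1 pair (permutation p = 0.775). Without the 2 samples farthest from the median, Cdh2 gave 0.92 with Snai2 and 0.85 with Fn1, and the lung epithelial markers gave 0.74 with Cdh1. Within KPT, T-LM and K-LM, Cdh2 with Fn1 gave 0.82, 0.87 and 0.92. The relation of Cdh1 with the lung epithelial markers was 0.96 in T-LM, 0.64 in K-LM and 0.41 in KPT (permutation p = 0.056). In K-LM no sample had Cdh1 above background, and each had 1 to 2 of the 9 markers above it. The 0.64 there rests on Cdh1 values that carry only a bound.

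**Figure D4:**
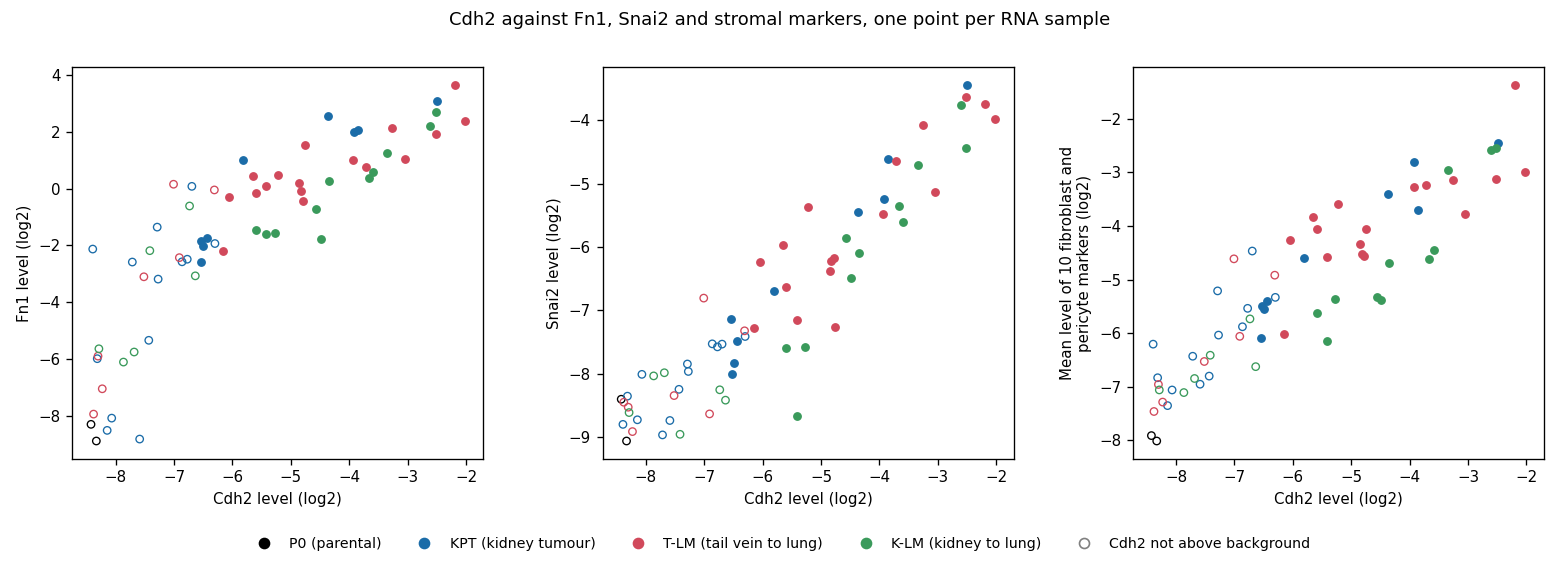
Level of Cdh2 (log2) in each RNA sample against Fn1, Snai2 and the mean level of the fibroblast and pericyte markers, by route. Filled points have Cdh2 above background. Points of all 3 routes overlap along a common trend, with r of 0.86 for Fn1, 0.93 for Snai2 and 0.91 for the markers.

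Further genes of the programme were counted from lists. For each, the median fitted change stands beside that of all tested genes, which was 0.03 for KPT, 0.02 for T-LM and 0.01 for K-LM. Most probes called among all tested were higher at P6, with 714 higher and 99 lower for KPT, 1261 and 301 for T-LM and 791 and 202 for K-LM, and the lists' counts are to be read beside these. Genes below background on all P0 arrays are given as bounds. Krt19, Esrp1, Grhl2, Acta2, Myl9, Col1a1 and Bmp7 were above background on 1 of 4 P0 arrays, and Col1a2 and Fstl1 on 2. Their changes are printed without a bound and rest in part on dim P0 values. Of 35 epithelial junction genes, 24 were tested in KPT with 4 higher and 1 lower at P6 (median 0.24), 24 in T-LM with 8 higher and 1 lower (median 0.79), and 26 in K-LM with 5 higher and none lower (median 0.46). Krt19, a simple-epithelium keratin, rose in each route, with a change in KPT of 3.92 ± 0.247 (SE), 6.22 ± 0.366 for T-LM and 6.03 ± 0.618 for K-LM. Krt19 thus rose also in the KPT and K-LM routes, where no P6 sample had Cdh1 above background. In KPT, Cdh16, a kidney cadherin, was at least 2.69-fold and the tight junction gene Cldn1 at least 1.39-fold higher, and the desmosomal gene Ppl fell by 1.62. In T-LM Krt7 was at least 10.7-fold and Lsr at least 6.75-fold higher, and Cdh3, the placental cadherin, fell by 1.92. In K-LM Cldn1 was at least 9.87-fold higher and Itgb4, an integrin of hemidesmosomes, rose by 1.97. Krt7, 1 of the 5 genes called there, was below background on all arrays of both groups. With dim values raised to the floor, 2 genes were called in KPT (median 0.02), 7 in T-LM (0.49) and 5 in K-LM (0.18).

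Of 16 epithelial regulators, KPT had 2 of 9 tested that rose (median 0.25), T-LM 5 of 12 (median 1.22) and K-LM 2 of 10 (median 0.65), and none fell. A gene dim on all P0 arrays entered a fit only through arrays of passaged cells, so the filter favoured rises in this and the other lists. In T-LM, Foxa1 and Foxa2 were above background on no P0 array and on 2 and 3 T-LM P6 arrays. Esrp1, a splicing factor of epithelial cells, rose in all 3 routes, by 4.11 ± 0.259 (SE) for KPT, 4.01 ± 0.185 for T-LM and 3.07 ± 0.339 for K-LM. Grhl2 rose by 2.41 in KPT and 2.47 in T-LM. Klf5 rose by 1.56 in K-LM, and Foxa2 was at least 1.20-fold higher in T-LM. With the floor, 1, 2 and 2 regulators were called, with medians of 0.19, 0.09 and 0.52. Of 35 mesenchymal genes, KPT had 7 of 34 tested that rose (median 1.82), T-LM 21 of 34 with 1 lower (median 3.07), and K-LM 11 of 33 (median 2.11). In KPT, Acta2 rose by 6.84, Pdgfrb was at least 5.05-fold higher and Col6a1 at least 6.01-fold. In T-LM, Acta2 (8.64), Myl9 (8.61) and Col1a1 (7.55) rose, and in K-LM Col1a2 (6.17) and Col1a1 (5.98) rose and Thy1 was at least 12-fold higher. S100a4 fell by 1.45 in T-LM. With the floor, 5, 15 and 7 mesenchymal genes were called, with medians of 0.48, 1.90 and 1.62. Col1a1, Col1a2 and Pdgfrb are also in the fibroblast marker list.

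Of 21 further EMT transcription factors, 1 rose in each route. It was Etv4 in KPT (2.16 ± 0.316, SE, of 13 tested) and in T-LM (2.19 ± 0.343, of 15 tested), and Hmga2 in K-LM (at least 3.41-fold, of 14 tested), whose call was lost with the floor (adjusted p = 0.0304, limma). The medians were 0.13, 0.81 and 1.00. Of 17 catenins and classical cadherins, 0 of 9 tested were called in KPT (limma), and Nectin2, a nectin of adherens junctions, was the 1 gene of 11 that rose in T-LM (1.40 ± 0.249) and in K-LM (1.52 ± 0.258). Of 38 TGF-beta pathway genes, the KPT fit tested 35 and called 3 higher, the T-LM fit called 10 of 34 higher, and the K-LM fit called 6 of 34 higher and 1 lower. The medians were 0.21, 0.87 and 0.33. TGF-beta is a classic inducer of EMT. In KPT the ligands Bmp7 (3.28) and Inhba (1.75) rose and Bmp4 was at least 2.23-fold higher. In T-LM Grem1 was at least 22-fold and Ltbp2 at least 21.6-fold higher, and Fstl1 rose by 6.27. In K-LM Ltbp2 was at least 27.6-fold, Grem1 at least 19.1-fold and the receptor Tgfbr2 at least 5.08-fold higher, and Tgfb2 fell by 1.45. Grem1 is a secreted antagonist of BMP ligands, Fstl1 a secreted glycoprotein and Ltbp2 a matrix protein. With the floor, the medians for KPT, T-LM and K-LM were -0.46, 0.10 and 0.46 for the further transcription factors with 1, 1 and 0 genes called, 0.16, -0.40 and 0.22 for the catenins with 0, 1 and 1 called, and -0.01, 0.75 and 0.33 for the TGF-beta list with 1, 7 and 6 called. Of the list genes given as bounds, Cdh16, Cldn1, Col6a1 and Bmp4 in KPT, Foxa2 in T-LM, and Thy1 and Hmga2 in K-LM did not pass with the floor (limma).

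**Figure D5:**
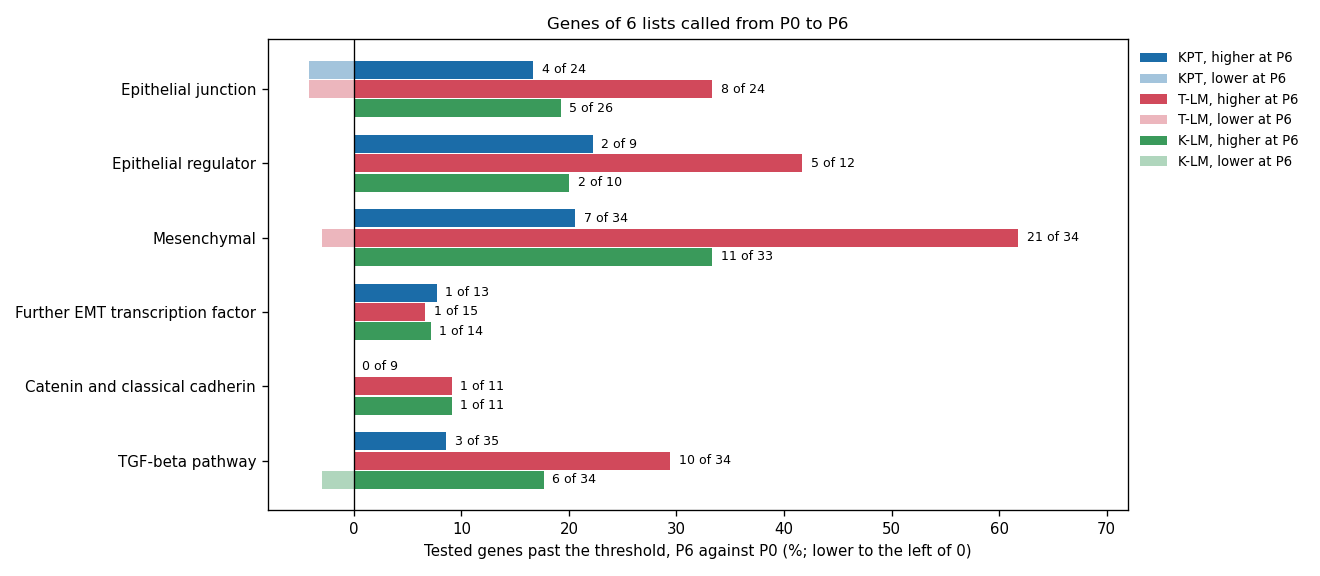
Percent of the tested genes of each list called higher or lower at P6 than at P0 in KPT, T-LM and K-LM (adjusted p of 0.01 or less, limma). The mesenchymal list had 7, 21 and 11 genes higher, and the epithelial junction list 4, 8 and 5.

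The genes most like each member across the groups of route and passage were named by Pearson correlation of group means over 13555 genes and 19 groups (18 for Vim). They are a description, since the groups share a cell line, slides and scan days. Cdh2 was nearest to Epdr1, Dkk3 and Adamts2, each at r = 0.98. Fn1 was nearest to Fkbp10 (0.98), Col1a2 (0.98) and Col1a1 (0.97), of which the last are the chains of type I collagen. Vim was nearest to Vapa (0.90), Cavin1 (0.89) and Rarg (0.88), and Snai1 to Litaf (0.93), Limk1 (0.93) and Plekho2 (0.92). Zeb1 was near Eif4g3 and Foxk1, each at 0.97, and Zeb2 to Sec24a (0.96), Maml1 (0.96) and Ptpn9 (0.95). No gene was in the nearest 3 of more than 1 member.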

How the data were processed

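The authors hybridised Cy5-labelled total RNA to Agilent SurePrint G3 mouse arrays. The deposited scanner files hold each spot's intensity (red channel), which Agilent Feature Extraction 11.0.1.1 (62 arrays) or 12.0.2.2 (8 arrays) had corrected for background and spatial trend. The authors' deposited series values, on the log2 scale, matched quantile-normalized log2 median intensity within 0.106 and served as an alternative. Control spots (3671 of 62976) were left out, spots of a probe were averaged, and each symbol took its brightest probe. Accessions were named through a RefSeq table of GRCm38.p6 (28020 of 55681 probes, 21150 symbols), without coordinates of genes.

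Levels were log2 processed intensity minus the 75th percentile over 11290 probes above background on all arrays. limma 3.58.1 (R 4.3.3) tested probes above background on at least 2 arrays of a fit, with Benjamini-Hochberg adjusted p of 0.01 or less. KPT and T-LM fits held P0 and P2 to P6, with P1 added for the P1 comparisons. K-LM and P6 fits added the repeat arrays, a late-slide term and RNA sample as a random block. In all other steps repeats were averaged, and a sample counted as above background when every array of it was. Relations used permutation tests (100000 resamples, two-sided). The fit was tested on simulated data. Array number limits the precision. Normexp was run on median signals, as no mean signal was used here, and with an offset of 50.

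All 10 members were named everywhere, and per list the 3 largest called rises and falls from P0 to P6. Members, lists, markers and tests were chosen with earlier results of these data known. Some items of the marker lists and of the nearest genes are not reported here. Listed promoters were matched by symbol for 5 members. Alternatives covered scaling, background, filter, floor, deposited values, samples in the fit, slide, RNA balance, replicate block and each replicate left out.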

Additional observations from a re-analysis of the deposited data

Results flagged for a closer look

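Of 90 groups of 4 to 10 samples tested over the 10 genes, 15 had a highest or lowest sample set apart from the rest by Dixon's test, where chance gives about 5%. The groups share samples, so these are not independent. The sample LOT1 of T-LM P1 was lowest for Cdh2 (-8.30), Fn1 (-5.90), Snai1 (-3.05) and Vim (2.47). T-LM P5 replicate 1 was highest for Cdh2 (-2.19), Fn1 (3.65), Snai2 (-3.74) and Twist1 (-5.20), the last below background. T-LM P1 replicate 2 was highest for Cdh1 (-5.50) and Zeb2 (-2.83). KPT P6 replicate 1 was lowest for Cdh2 (-7.27) and Fn1 (-3.19), KPT P5 replicate 1 was highest for Vim (3.27), T-LM P4 replicate 1 was lowest for Zeb2 (-3.76), and K-LM P5 replicate 6 was lowest for Twist1 (-8.34), in a group with no Twist1 value above background.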

How the results depend on the processing

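Of 1836 values of single members recomputed under alternatives, 1729 stayed on their side of the threshold (92 of them changed sign with neither value called), 45 lost a call, 60 gained one and 2 reversed. The 2 were Cdh1 with Zeb1 (-0.74) and Cdh1 with Zeb2 (-0.71) within K-LM. The causes were not tested, except that requiring signal above background on all arrays of a fit leaves out Cdh1 and most dim members. Counts of members called, with the reported count first, were as follows. The share of all probes called under each alternative is not given. The counts therefore do not tell whether the members alone or the whole array gained or lost calls. KPT P0 to P6 (0) gave 2 with the 2 compared groups alone, 1 in a single model of all routes and 1 on the late slide alone, and 0 to 0 over replicates left out. KPT P3 to P6 (0) gave 1 with the 2 groups alone. T-LM P0 to P6 (2) gave 0 with the all-array filter, 1 with the floor, 4 with the 2 groups alone and 1 to 2 over replicates left out. T-LM P3 to P6 (4) gave 0 with the all-array filter, 1 with the 2 groups alone, 2 with normexp, deposited values, the floor or the single model, and 2 to 4 over replicates left out. K-LM P0 to P6 (1) gave 0 with the all-array filter, 2 with the percentile over all probes, the floor or no late-slide term, 3 with the 2 groups alone, a slide block, the late slide alone or the first arrays of the repeated KPT P6 samples added (chosen after seeing the data), and 1 to 1 over replicates left out. K-LM P3 to P6 (0) gave 1 with normexp, the floor or no late-slide term, and 0 to 1 over replicates left out. KPT P0 to P1 (0) gave 1 with deposited values or the single model, 2 with a slide block, and 0 to 1 over replicates left out, the 1 being Snai1 without KPT P1 replicate 1. T-LM P0 to P1 (1) gave 0 with the all-array filter, the floor or the 2 groups alone, 2 in the single model, and 0 to 3 over replicates left out. T-LM against KPT at P6 (3) gave 0 with the all-array filter, 1 in the single model, 2 with the floor, 4 with a slide block or the RNA balance index (Zeb2 added) and 2 to 3 over replicates left out. K-LM against KPT (2) gave 1 with the all-array filter, 0 in the single model, 3 with the RNA balance index (Zeb2 added) or deposited values (Cdh1 added) and 0 to 2 over replicates left out. K-LM against T-LM (1) gave 0 with the all-array filter or the floor, 2 with the percentile over all probes, deposited values or a slide block, 3 without the late-slide term and 1 to 3 over replicates left out. Relations past the threshold (1) numbered 9 on deviations from the group means, 5 within KPT and 3 within K-LM, and 1 without the T-LM P6 samples. Same-numbered samples did not in general deviate together (26 pairs, r -0.50 to 0.36, median -0.06). With so few samples per group this cannot exclude a pairing, and the reported fits used none. With a replicate block, K-LM P3 to P6 gave 1, T-LM P0 to P1 gave 3, T-LM P3 to P6 gave 3, T-LM against KPT gave 2 and K-LM against KPT gave 0, and it moved no other count.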
